A study of Mus musculus with 6 samples.

Results

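White and brown adipocyte genes, 10 in number, were followed through 6 RNA sequencing libraries labelled as mouse left ventricle. They are Adipoq, Lep, Retn, Cfd, Plin1, Plin4, Cidec, Fabp4, Ucp1 and Cidea, taken by symbol from a table of 21989 genes, and all 10 were found. Male C57BL/6 mice, of an age that the sources used here do not give, were injected under the skin either with ISO at 10 mg/kg/d or with an equal volume of saline for 3 weeks. The abbreviation ISO commonly stands for isoproterenol, which activates beta-adrenergic receptors. The labels title the saline libraries as sham and the ISO libraries as heart failure, with 3 libraries in each group, and no transgene or other agent is named for either group. Biological repeats are mentioned in the labels but no animal is named per library, so a p-value here measures the spread between these samples. Levels are FPKM, the fragments counted on a gene scaled by its length and by the library's total, so genes of different length can be compared.

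White adipocytes store triglyceride in a single large droplet and secrete hormones such as adiponectin and leptin. Brown adipocytes hold many small droplets and burn fatty acids to make heat, for which they use the uncoupling protein UCP1 of the inner mitochondrial membrane. Beta-adrenergic receptors on both cell types start lipolysis, and in brown fat they raise Ucp1. Fat lies on the surface of the mouse heart in small amounts and around the large vessels at its base, where part of it is brown. In bulk tissue, fewer cells of a type and less RNA per cell cannot be told apart, which holds for every level below.

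Promoter windows from RefSeq (GRCm38.p6) are shown for Adipoq, the white fat hormone, for Ucp1, the heat-producing protein whose order over the libraries differed, and for Lep, the only other hormone gene here with a motif match. Each window is the 250 bases before the annotated start, 5′ to 3′ on the gene's strand, which is the plus strand for all 3. Capitals mark matches on either strand to the motifs searched, among which AGGTCA is the element of nuclear receptors. The other motifs searched were its direct repeat with 1 base between the copies, the C/EBP palindrome TTGCGCAA, the box CCAAT bound by NF-Y, the TATA box with the letters TATAAA, and the cAMP response element TGACGTCA.
Adipoq, chr16:23146286-23146535: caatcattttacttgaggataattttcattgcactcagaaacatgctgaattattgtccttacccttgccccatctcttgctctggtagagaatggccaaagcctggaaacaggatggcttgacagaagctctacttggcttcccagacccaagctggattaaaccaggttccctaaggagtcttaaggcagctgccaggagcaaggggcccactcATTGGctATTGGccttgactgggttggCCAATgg
Ucp1, chr8:83290098-83290347: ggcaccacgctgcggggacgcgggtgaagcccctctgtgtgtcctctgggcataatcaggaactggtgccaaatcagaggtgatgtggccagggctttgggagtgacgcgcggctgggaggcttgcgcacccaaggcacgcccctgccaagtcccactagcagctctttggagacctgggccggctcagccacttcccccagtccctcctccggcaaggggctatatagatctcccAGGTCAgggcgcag
Lep, chr6:29059971-29060220: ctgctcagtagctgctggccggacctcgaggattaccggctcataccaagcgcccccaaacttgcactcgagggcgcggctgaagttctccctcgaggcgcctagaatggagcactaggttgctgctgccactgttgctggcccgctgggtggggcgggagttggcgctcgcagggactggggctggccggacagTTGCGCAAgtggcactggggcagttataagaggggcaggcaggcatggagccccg
The Adipoq window held 3 CCAAT matches, and 2.79% of 32851 windows of this length in the RefSeq table held at least 3. The Ucp1 window held 1 AGGTCA, as 14% of windows held at least 1. The Lep window held 1 TTGCGCAA, which 0.164% of windows held. The direct repeat was in 0.0335% of all windows and in none of those used here, which covered 8 of the 10 genes. The direct repeat contains AGGTCA, so a match to it is a match to both. At least 1 CCAAT was in 33.8% of windows, including that of Plin4. The TATA box letters were in 12.4% and the cAMP response element in 1.55% of windows, and in none of the windows of the 8 genes. A match is a run of letters and not a shown binding site.

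The library totals behind the FPKM, worked out from the smallest FPKM steps, were between 2776152 and 9862363 reads, and saline 3 had the fewest. Reads on genes made up 99.65% to 99.73% of these totals, so they do not count all reads sequenced. Saline 3 also stood apart in its Pearson r with the other libraries over 12269 genes, which lay from 0.788 to 0.83, while the other 5 libraries had an r of at least 0.918 with each other. ISO 1 and ISO 2 were the closest pair by counting noise, with a median chi-square 4.47 times what sampling gives. By Pearson r they were not, at 0.962, and saline 1 and saline 2 were the closest at 0.973. The tissue label was checked against chamber genes: the ventricular light chain Myl2 was below the atrial light chain Myl7 in 5 of 6 libraries, with ratios from 0.0168 in ISO 3 to 1.22 in saline 3. In those 5 libraries these genes did not bear out the label of left ventricle. In saline 3 the atrial Myl7 was at 7469 FPKM beside Myl2 at 9101 FPKM, so the label was not clearly borne out there either. Intervals below are 95% exact Poisson intervals and cover counting error only.

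All 10 fat cell genes had reads in all 6 libraries, and for 7 of the 10 ISO 3 lay at least 2-fold above both ISO 1 and ISO 2. Adipoq, Lep, Cfd, Plin1 and Cidec were highest in ISO 3 (4 of the 9 genes tested below, against 30.1% of all genes), while Fabp4 and the brown adipocyte genes Ucp1 and Cidea were highest in saline 3. None of the genes passed the test of ISO against saline. Over the 6 libraries, mean levels ran from Fabp4 (2262 FPKM) and Cfd (392 FPKM) through Plin4 (67.0 FPKM), Ucp1 (62.3 FPKM), Adipoq (52.1 FPKM), Cidec (46.3 FPKM) and Cidea (38.9 FPKM) to Retn (10.7 FPKM), Plin1 (6.71 FPKM) and Lep (0.412 FPKM). From Plin4 to Cidea in this order, neighbours differed by less than the spread of either gene over the libraries.

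Among the secreted proteins, Adipoq encodes adiponectin, an insulin-sensitizing hormone made by fat cells (chromosome 16, 23146536 to 23157968). It was at 45.2, 51.0 and 34.8 FPKM across saline 1, 2 and 3, against 17.2, 19.4 and 145 FPKM across ISO 1, 2 and 3. ISO 1 and ISO 2 lay below every saline library and ISO 3 above all of them, so the groups overlapped. The counting intervals did not overlap, at 14.6 to 20.1 FPKM in ISO 1 (156 reads) and 136 to 154 FPKM in ISO 3 (1004 reads).

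Cfd encodes adipsin, the complement factor D that fat cells secrete (chromosome 10, 79890853 to 79892655). Its levels were 419, 292 and 80.8 FPKM across saline 1, 2 and 3, against 145, 151 and 1264 FPKM across ISO 1, 2 and 3. ISO 3 was again the highest, 8.54 times the mean of ISO 1 and ISO 2, but here saline 3 was the lowest library. Lep encodes leptin, the satiety hormone of white fat (chromosome 6, 29060221 to 29073876). Few reads stood behind it, with 12, 13 and 1 across saline 1, 2 and 3, against 4, 1 and 21 across ISO 1, 2 and 3. Its level of 1.14 FPKM in ISO 3 (interval 0.705 to 1.74) lay above the interval of ISO 1 (0.045 to 0.423 FPKM) and that of ISO 2 (0.0015 to 0.329 FPKM), and overlapped that of saline 2 (0.334 to 1.07 FPKM) but of no other saline library. Retn encodes resistin, a small hormone of mouse white fat (chromosome 8, 3655770 to 3659818). It was at 16.3, 10.3 and 4.48 FPKM across saline 1, 2 and 3, against 9.69, 7.24 and 16.2 FPKM across ISO 1, 2 and 3, a narrower range in which saline 1 and ISO 3 shared the top.

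**Figure D1:**
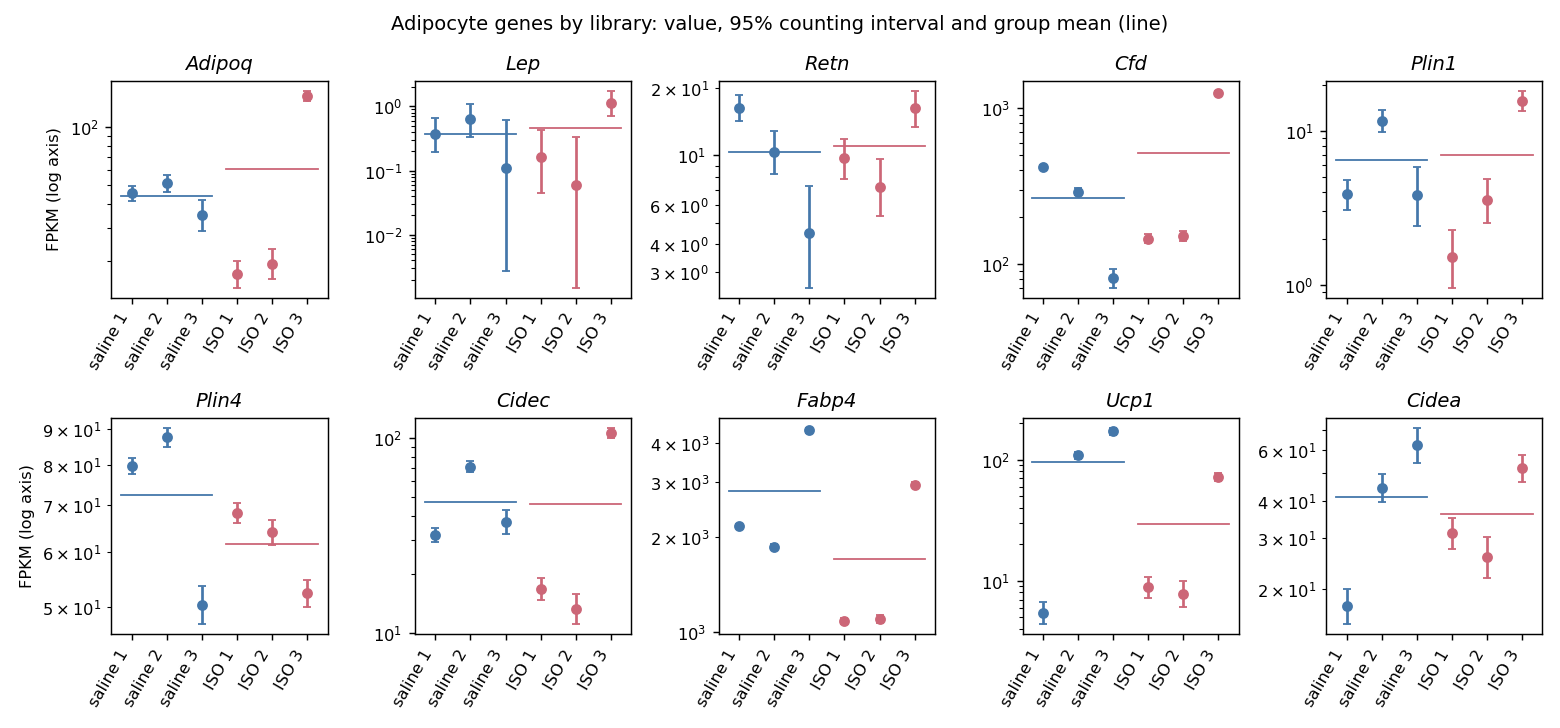
Level of each of the 10 genes in each library (FPKM, log axis, scaled per gene), with the 95% Poisson interval of the reads as bars and the group mean as a line. Adipoq, Lep, Cfd, Plin1 and Cidec are highest in ISO 3, and Ucp1 is at 5.43 to 8.82 FPKM in saline 1, ISO 1 and ISO 2 and at 71.7 to 172 FPKM in the other 3 libraries.

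Of the lipid droplet coat proteins, Plin1 encodes perilipin 1, which guards the droplet of fat cells against lipases (chromosome 7, 79721164 to 79732904). It was at 3.88, 11.7 and 3.84 FPKM across saline 1, 2 and 3, against 1.51, 3.57 and 15.8 FPKM across ISO 1, 2 and 3. Saline 2 and ISO 3 were high and the remaining 4 libraries low. Cidec encodes a protein that fuses droplets into a single large one (chromosome 6, 113424634 to 113435760). It was at 31.8, 71.5 and 37.3 FPKM across saline 1, 2 and 3, against 16.8, 13.2 and 107 FPKM across ISO 1, 2 and 3, so the same pair of libraries, saline 2 and ISO 3, led. Its ratio to Adipoq within a library stayed between 0.683 and 1.4.

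Plin4 encodes a perilipin that coats small new droplets and is also made in heart and skeletal muscle (chromosome 17, 56100587 to 56109948). It was at 79.6, 87.6 and 50.3 FPKM across saline 1, 2 and 3, against 68.3, 64.0 and 52.3 FPKM across ISO 1, 2 and 3. This was the flattest of the 10 genes, with a highest level 1.74 times its lowest, and ISO 3 was its lowest ISO library. Its ratio to Plin1 ran from 3.31 in ISO 3 to 45.2 in ISO 1. In the GENCODE annotation 17 bases of Plin4 overlap Hdgfl2 on the other strand, and the strand setting of the counting is not known here.

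Fabp4 encodes the fatty acid binding protein of adipocytes, which capillary endothelium of the heart and macrophages make as well (chromosome 3, 10204342 to 10208616). It was at 2178, 1867 and 4403 FPKM across saline 1, 2 and 3, against 1079, 1098 and 2948 FPKM across ISO 1, 2 and 3. Saline 3 was the highest library and ISO 1 and ISO 2 the lowest, with counting intervals of 1054 to 1105 FPKM (ISO 1) and 1067 to 1129 FPKM (ISO 2). Its ratio to Adipoq was 127 in saline 3 and 20.3 in ISO 3. Of the 15 capillary endothelium markers, 5 were highest in saline 3 as Fabp4 was (Flt1, Rgcc, Gpihbp1, Meox2 and Tcf15). More of them, Pecam1, Cdh5, Kdr, Tie1, Egfl7, Emcn, Esam and Vwf, were lowest in saline 3. The summed level of the 15 was 807 to 1098 FPKM in saline and 913 to 1160 FPKM in ISO. That sum was lowest in saline 3, at 807 FPKM, and Cldn5 was at 0 in saline 3 and ISO 1. Pecam1, an adhesion protein of all endothelium, was at 17.6 FPKM in saline 3, where Fabp4 was highest, and at 91.9 to 137 FPKM elsewhere. Tcf15, a transcription factor of heart capillaries, was at 30.3, 40.1 and 74.3 FPKM across saline 1, 2 and 3, against 13.5, 14.0 and 43.2 FPKM across ISO 1, 2 and 3, high and low in the same libraries as Fabp4. The part of endothelial cells in the Fabp4 level was not tested.

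Of the brown adipocyte genes, Ucp1 (chromosome 8, 83290348 to 83298456) varied the most of the 10. It was at 5.43, 108 and 172 FPKM across saline 1, 2 and 3, against 8.82, 7.79 and 71.7 FPKM across ISO 1, 2 and 3. The reads behind this were 88, 1123 and 783 across saline 1, 2 and 3, against 107, 66 and 662 across ISO 1, 2 and 3. Saline 2, saline 3 and ISO 3 were high and the remaining 3 libraries low, with a highest level 31.6 times the lowest, and the lowest library was a saline one. Cidea encodes a droplet protein of brown fat related to Cidec (chromosome 18, 67343564 to 67367794). It was at 17.5, 44.5 and 62.2 FPKM across saline 1, 2 and 3, against 31.2, 25.8 and 51.9 FPKM across ISO 1, 2 and 3. The same 3 libraries were high as for Ucp1, over a range of 3.55 times. Saline 1, ISO 1 and ISO 2 were the 3 lowest libraries for Cidec, Ucp1 and Cidea, 3 of the 9 genes tested, as for 4.94% of all genes. This pattern was chosen after the values were seen, so the difference is no test. In Cidea 500 bases overlap B430212C06Rik on the other strand, so reads of both cannot be told apart without strand.

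Ucp1 and Adipoq did not keep a common ratio. Ucp1 FPKM divided by Adipoq FPKM was 0.12, 2.13 and 4.93 across saline 1, 2 and 3, against 0.514, 0.402 and 0.494 across ISO 1, 2 and 3. The 3 ISO libraries lay close together and inside the saline range, although ISO 3 held more of both RNAs than ISO 1 and ISO 2 did. Saline 1 and saline 2 had similar Adipoq levels with overlapping intervals (41.5 to 49.1 and 46.1 to 56.2 FPKM), while Ucp1 intervals were 4.35 to 6.69 FPKM in saline 1 and 102 to 115 FPKM in saline 2.

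**Figure D2:**
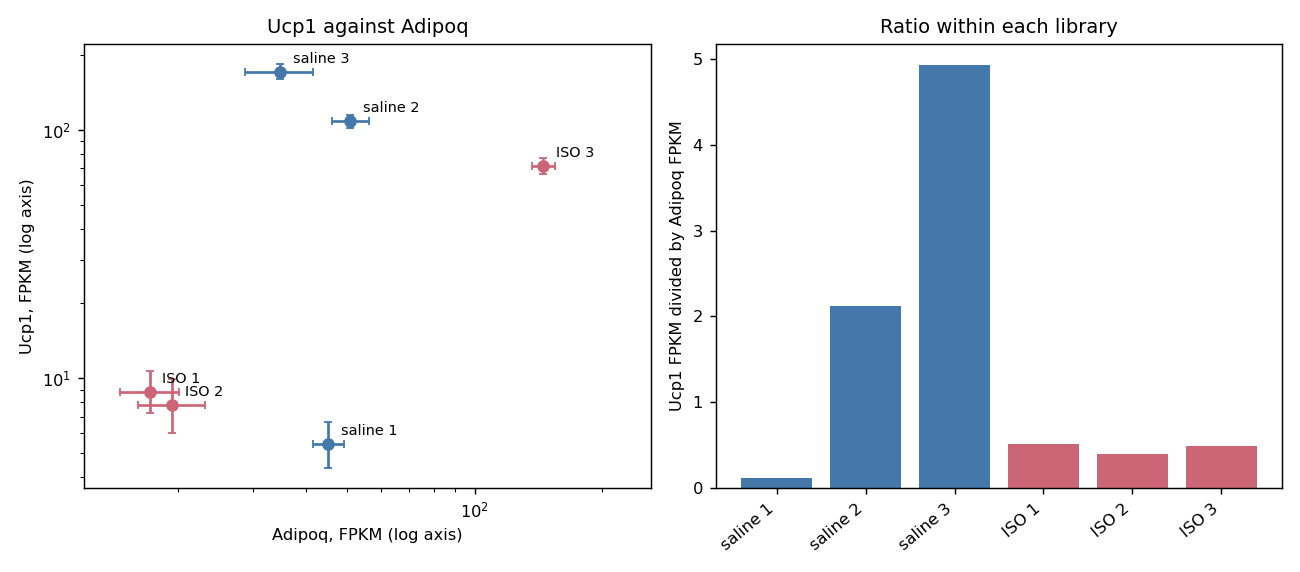
Left, Ucp1 against Adipoq in each library (FPKM, log axes, bars are 95% Poisson intervals). Right, the ratio of their levels by library, which is 0.402 to 0.514 in the ISO libraries and 0.12 to 4.93 in the saline libraries.

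Of the 10 genes, 9 had a mean of at least 1 FPKM and were tested among 12269 genes with limma on log2(FPKM + 1), and Lep did not reach that level. With Benjamini-Hochberg adjustment over all genes, 0 of the 9 passed at 0.05, as did 0% of all genes tested. Sample quality weights were 0.0772 for saline 3 and 0.449 for ISO 3, against 1.04 to 5.5 for the other libraries. With these weights 0 of the 9 passed against 6.26% of all genes, and without ISO 1 it was 0 of the 9 against 0.13%. At an unadjusted p under 0.05 there were 0 of the 9, against 6.31% of all genes. Groups without overlap were found for 0 of the 9, against 16.5% of all genes. The log2 fold change, ISO minus saline, was below 0 for 7 of the 10 genes with a median of -0.21, while it was below 0 for 31.9% and above 0 for 68.1% of all genes tested, with a median of 0.20. This lean depended on single libraries: of the 9 tested genes 7 were below 0, but 4 without ISO 1 and 5 without ISO 2 or saline 2. The median of the 10 was then 0.08, 0.05 and 0.01, and it was -0.63 with quality weights.

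Fabp4 had the smallest p of the 9, with a saline mean of 2816 ± 1383 FPKM and an ISO mean of 1708 ± 1073 FPKM (SD, n = 3 each), a log2 fold change of -0.79 (SE 0.51, limma adjusted p = 0.699). It was -0.41 without saline 3 and -1.26 without ISO 3. Ucp1 had the lowest fold change, -1.42 (SE 1.35, limma adjusted p = 0.706), at 95.1 ± 83.9 and 29.4 ± 36.6 FPKM (SD, n = 3 each). It was -0.52 without saline 3, -2.90 without saline 1, -2.41 without ISO 3, -0.85 without saline 2 and -0.89 without ISO 2. With quality weights it was -0.44, and Cidec (-1.25) was then the lowest. Cidec had a log2 fold change of -0.58 (SE 0.76, limma adjusted p = 0.767). Leaving out ISO 3 gave -1.50, ISO 2 -0.04, ISO 1 -0.20 and saline 2 -0.24.

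For Adipoq the linear and the log scale gave opposite signs. Its saline mean was 43.6 ± 8.19 FPKM and its ISO mean 60.6 ± 73.3 FPKM (SD, n = 3 each), while its log2 fold change was -0.22 (SE 0.76, limma adjusted p = 0.915). Without ISO 3 it was -1.20, and without ISO 1 or ISO 2 it was 0.31 or 0.22. Cfd had a log2 fold change of 0.49 (SE 0.96, limma adjusted p = 0.839). Leaving out ISO 3 gave -0.53, saline 3 -0.21 and ISO 1 1.02. Plin1 had -0.21, and leaving out ISO 1 gave 0.39, saline 2 0.25 and ISO 3 -0.98. The remaining fold changes were 0.16 for Retn, -0.20 for Plin4, -0.07 for Cidea and 0.03 for Lep, with limma adjusted p from 0.772 to 0.955 for those tested.

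**Figure D3:**
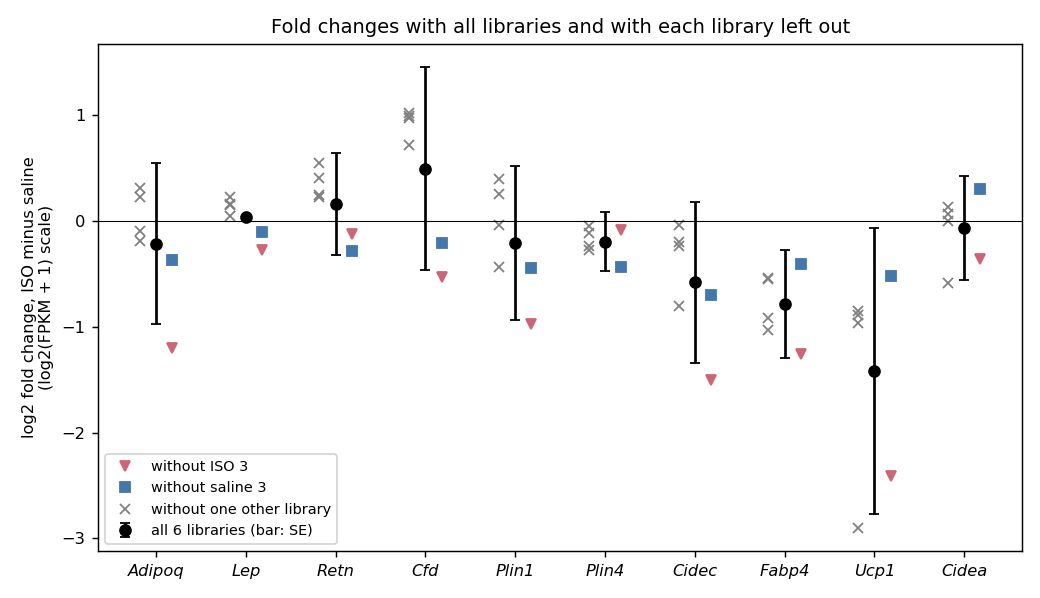
Log2 fold change of ISO against saline for each gene (black, all 6 libraries, bars are SE from limma; Lep was not tested and has no bar) and with a library left out (triangles without ISO 3, squares without saline 3, crosses without another library). For Adipoq the value moves between -1.20 without ISO 3 and 0.31 without ISO 1, and Plin4 stays between -0.44 and -0.05.

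The spread within a group was large for these genes. The within-group SD of log2(FPKM + 1) was 2.19 for Ucp1, 1.53 for Cfd, 1.21 for both Adipoq and Cidec and 1.14 for Plin1, and 0.33 for Plin4, against a median of 0.42 over all genes tested. Of all genes tested, 99.8% had a lower SD than Ucp1. ISO 3 lay at least 2-fold above both ISO 1 and ISO 2 for 6 of the 9 tested genes, as did 4.7% of all genes, a pattern chosen after the values were seen. ISO 1 and ISO 2 both lay below all 3 saline libraries for 4 of the 9 (Adipoq, Plin1, Cidec and Fabp4), as did 8.08% of all genes. That pattern too was chosen after the values were seen. The counting intervals of ISO 1 and ISO 2 overlapped for 9 of the 10 genes, all but Plin1, while those of saline 1 and saline 2 overlapped for 2 (Adipoq and Lep).

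Other genes that white fat uses were followed by list. Of 18 further white adipocyte genes, 17 were in the table and 15 were tested, 0 passed, 6 were higher and 9 lower in ISO, with a median log2 fold change of -0.19, a median that moved to 0.24, 0.39 or -0.91 when ISO 1, ISO 2 or ISO 3 was left out. ISO 3 was at least 2-fold above ISO 1 and ISO 2 for 12 of these 15. Car3, a carbonic anhydrase abundant in fat, was at 295, 425 and 162 FPKM across saline 1, 2 and 3, against 138, 131 and 1280 FPKM across ISO 1, 2 and 3. Adrb3, the beta-adrenergic receptor of fat cells, was at 2.84, 4.30 and 0.309 FPKM across saline 1, 2 and 3, against 0.503, 0.166 and 9.21 FPKM across ISO 1, 2 and 3, on 3 to 181 reads. Both followed the order seen for Adipoq in having ISO 3 on top, and were named after their values were seen. By the rule of smallest p, the list gave Hp (log2 fold change -1.40), Mrap (-0.81), Npr3 (0.96) and Aoc3 (0.65), with a limma adjusted p = 0.699 for each. Hp, the hemoglobin-binding haptoglobin, is made by liver as well as fat, and was at 327 FPKM in saline 3 against 37.5 to 152 FPKM elsewhere. Orm1, another plasma protein of liver and fat, reached 46.2 FPKM in saline 3, with 13.7 FPKM in ISO 3 against 1.04 to 3.74 FPKM elsewhere. Fabp1, the fatty acid binding protein of liver, was at 30.7 FPKM in saline 3 and at 0 to 1.45 FPKM elsewhere, and the part of liver RNA in these values was not tested.

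Of 17 further brown adipocyte genes, 13 were tested, 0 passed, 2 were higher and 11 lower, with a median of -0.47, or -0.89 without saline 1. The genes with the smallest p were Cox7a1 (log2 fold change -1.46), Cox8b (-0.95), Kcnk3 (-1.16) and Fabp3 (-1.37), with a limma adjusted p = 0.699 for each, and Cox7a1, Cox8b and Fabp3 are also abundant heart muscle genes. The groups did not overlap for 4 of the 13, all lower in ISO (Cox7a1, Cox8b, Kcnk3 and Pank1), as did 3.72% of all genes in that direction. Dio2, the deiodinase that activates thyroid hormone in brown fat, was at 1.33, 7.76 and 10.7 FPKM across saline 1, 2 and 3, against 2.39, 1.78 and 7.89 FPKM across ISO 1, 2 and 3. It was high in the same 3 libraries as Ucp1. Slc27a2, a fatty acid transporter, was at 0.485, 4.55 and 3.76 FPKM across saline 1, 2 and 3, against 0.177, 1.10 and 5.50 FPKM across ISO 1, 2 and 3, also high in those 3. It was named after its values were seen. Saline 1, ISO 1 and ISO 2 were the lowest libraries for 3 of the 13 tested, against 4.94% of all genes. This pattern was chosen after the values were seen, and the rest of the 13 had other orders. Gk, for example, was highest in saline 1 (8.57 FPKM) and lowest in saline 3 (3.26 FPKM). The developmental brown fat regulators Zic1 and Lhx8 had at most 6 reads in any library, and Zic1 was at 0 in ISO 2.

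**Figure D4:**
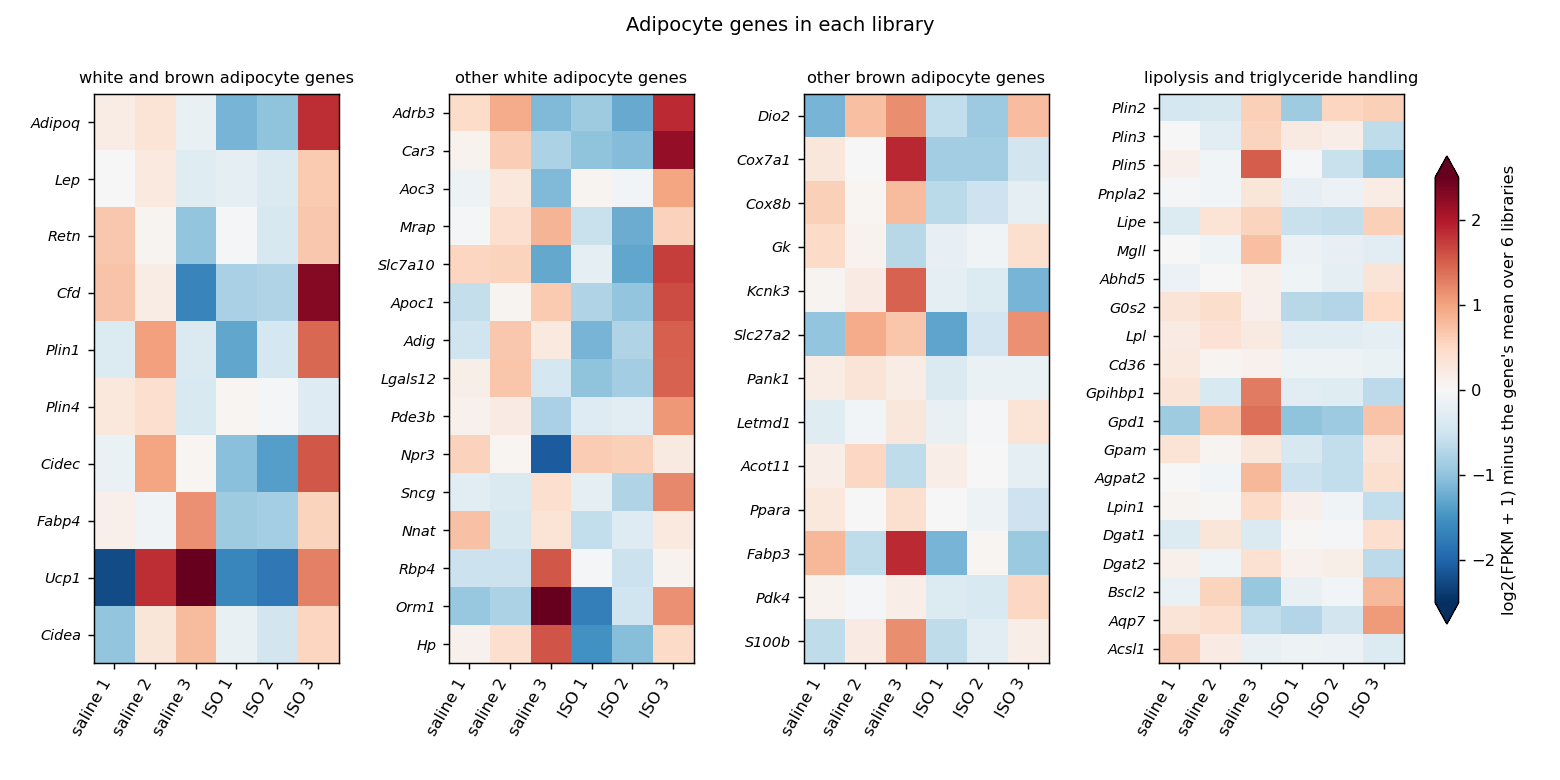
Each gene's log2(FPKM + 1) in each library minus its mean over the 6 libraries, with colours capped at the ends of the scale, for the 10 genes and the tested genes of 3 lists. Adrb3, Car3, Lgals12 and Adig are high in ISO 3 like Adipoq, and Dio2, Slc27a2 and Gpd1 are high in saline 2, saline 3 and ISO 3 like Ucp1.

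Genes of lipolysis and triglyceride handling were mostly lower in ISO, with 16 of 20 lower, 0 past the threshold and a median log2 fold change of -0.38. Leaving out saline 3 gave a median of -0.23, and median-of-ratios scaling gave -0.58. Lpl, the lipase that frees fatty acids from lipoproteins, was at 655, 725 and 656 FPKM across saline 1, 2 and 3, against 468, 463 and 484 FPKM across ISO 1, 2 and 3. Its groups did not overlap, as held for Mgll and Cd36 too, 3 of the 20 against 3.72% of all genes in that direction. Lpl had a log2 fold change of -0.52 (SE 0.21, limma adjusted p = 0.699). Plin5 (-1.05), the perilipin of oxidative muscle, Gpihbp1 (-0.83), which carries Lpl to the capillary wall, and G0s2 (-0.60), an inhibitor of the lipase Pnpla2, did not pass either. Gpd1, which makes the glycerol backbone of triglyceride, was at 21.8, 67.0 and 108 FPKM across saline 1, 2 and 3, against 19.9, 21.4 and 68.0 FPKM across ISO 1, 2 and 3.

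Fatty acid synthesis and glucose genes had 13 of 17 higher and a median of 0.15, but 7 of 17 higher under median-of-ratios scaling and without saline 3. Pck1, which makes glycerol precursors in fat, was at 37.4, 72.0 and 41.7 FPKM across saline 1, 2 and 3, against 9.68, 11.3 and 129 FPKM across ISO 1, 2 and 3, high and low in the same libraries as Cidec. The 4 genes with the smallest p were Elovl5, Pck1, Thrsp and Scd2, with limma adjusted p from 0.701 to 0.741. Among 12 adipocyte transcription factors, 5 were higher and 7 lower with a median of -0.16, which was 0.12 without saline 3. Pparg, the master regulator of fat cell formation, was at 5.40, 7.25 and 2.99 FPKM across saline 1, 2 and 3, against 4.51, 3.53 and 11.6 FPKM across ISO 1, 2 and 3, with ISO 3 on top. Rxrg, Rxra, Cebpb and Klf15 had the smallest p, with limma adjusted p from 0.699 to 0.744. Rxra, the partner of Pparg in binding DNA, was the 1 gene of the 12 without overlap, as were 16.5% of all genes in either direction, at 8.24 to 10.1 FPKM in saline and 11.4 to 12.2 FPKM in ISO.

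Of 4 receptors of the hormones, 3 were tested and 0 passed. Adipor1 and Adipor2, the adiponectin receptors, had log2 fold changes of 0.27 and 0.40, and Cdh13, which binds adiponectin on endothelium, had -0.02 (limma adjusted p from 0.712 to 0.978). Lepr, the leptin receptor, was at 0.129 to 1.02 FPKM and was not tested. Of 15 relatives from the same gene families, 12 were tested and 0 passed, with 5 higher and 7 lower and a median of -0.19, which was 0.14 without saline 3. Ucp3, the uncoupling protein of muscle, was at 49.0, 26.9 and 22.7 FPKM across saline 1, 2 and 3, against 19.9, 17.4 and 14.0 FPKM across ISO 1, 2 and 3, without overlap (log2 fold change -0.84, limma adjusted p = 0.699). Fabp7 (1.44), Plin5 and Fabp3 were the other relatives with the smallest p. The groups of Fabp7 did not overlap either, with ISO higher, so that 2 of the 12 had no overlap, against 16.5% of all genes in either direction. Of 11 fat cell progenitor genes, which fibroblasts share, 9 were tested, 8 were higher and 1 lower with a median of 0.70 (0.36 without saline 3), and 0 passed. The groups did not overlap for 4 of these 9, all higher in ISO (Pdgfra, Pdgfrb, Cd34 and Clec11a), as did 12.8% of all genes in that direction. The 10 fibroblast markers had 9 higher with a median of 0.64, and their part in the progenitor values was not tested. With sample quality weights, a limma adjusted p under 0.05 was reached by 4 of 20 lipolysis genes, 2 of 12 transcription factors, 1 of 15 white genes, 2 of 13 brown genes, 1 of 3 receptors and 2 of 12 relatives, against 6.26% of all genes, and by 0 of 17 synthesis and 0 of 9 progenitor genes.

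The genes most like Adipoq across the 6 libraries, outside the 10, were Nfyb (Pearson r 0.991), Gnl3 (0.983), Tmem170b (0.982), Sytl1 (0.981) and Jchain (0.981), by log2(FPKM + 1) over 12260 genes. Jchain, the joining chain of secreted antibodies, was at 3.14, 2.19 and 1.37 FPKM across saline 1, 2 and 3, against 0.451, 0.461 and 14.9 FPKM across ISO 1, 2 and 3. The genes most like Ucp1 were Dio2 (r 0.992), Msto1 (0.989), Camk2n2 (0.986), Gpd1 (0.985) and Zfp516 (0.979), of which Zfp516 encodes a zinc finger protein of brown fat. An r of at least 0.95 was reached by 37 genes for Adipoq and by 20 for Ucp1. Pearson r does not measure the size of a change. Nfyb ran only from 5.42 to 7.75 FPKM, against 17.2 to 145 FPKM for Adipoq. Zfp516 ran from 0.904 to 1.69 FPKM, against 5.43 to 172 FPKM for Ucp1. With 6 libraries that share their depth and makeup across genes, these values describe likeness in these libraries only.

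Markers of other cell types differed between the same libraries. The 11 lymphocyte markers summed to 59.7 FPKM in ISO 3 and to 9.30 to 22.9 FPKM elsewhere, of which 4 were tested and had ISO 3 highest. Of the 13 ventricular muscle markers 13 were lower in ISO, but 10 without ISO 3 and 11 without saline 1 or with quality weights. Their sum was lowest in ISO 3 (13359 FPKM) and highest in saline 3 (48517 FPKM). Single markers differed from the sum, as Ryr2 was lowest in saline 3, at 20.0 FPKM against 24.9 to 61.5 FPKM elsewhere. The 11 skeletal muscle markers summed to 60.5 FPKM in saline 3 and 39.7 FPKM in ISO 3 against 18.1 to 25.4 FPKM elsewhere, and Myh1, Myh2, Myh4, Tnnc2 and Myf6 were at 0 in some libraries. These 2 libraries were among the 3 with high Ucp1, but saline 2, also high in Ucp1, was at 25.4 FPKM. Mylpf alone was at 31.8 FPKM in saline 3, while Actn3 (0.125 FPKM) and Pvalb (3.39 FPKM) were lowest there. The 12 macrophage markers, 12 of 12 higher in ISO, summed to 501 to 939 FPKM in saline and to 1060 to 2020 FPKM in ISO. Mesothelium markers, of the outer lining of the heart, summed to 165 FPKM in saline 3 and to 322 to 438 FPKM elsewhere. Red blood cell genes, 7 of 7 higher in ISO, summed to 29517 FPKM in ISO 3 against 3236 to 14533 FPKM elsewhere. Atrial muscle markers, 4 of 6 higher but 1 of 6 under median-of-ratios scaling, 2 of 6 with quality weights and 0 of 6 without saline 3, summed to 10437 FPKM in saline 3 and 15136 to 26381 FPKM elsewhere. The part of these cells in the levels of the fat genes was not tested.

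**Figure D5:**
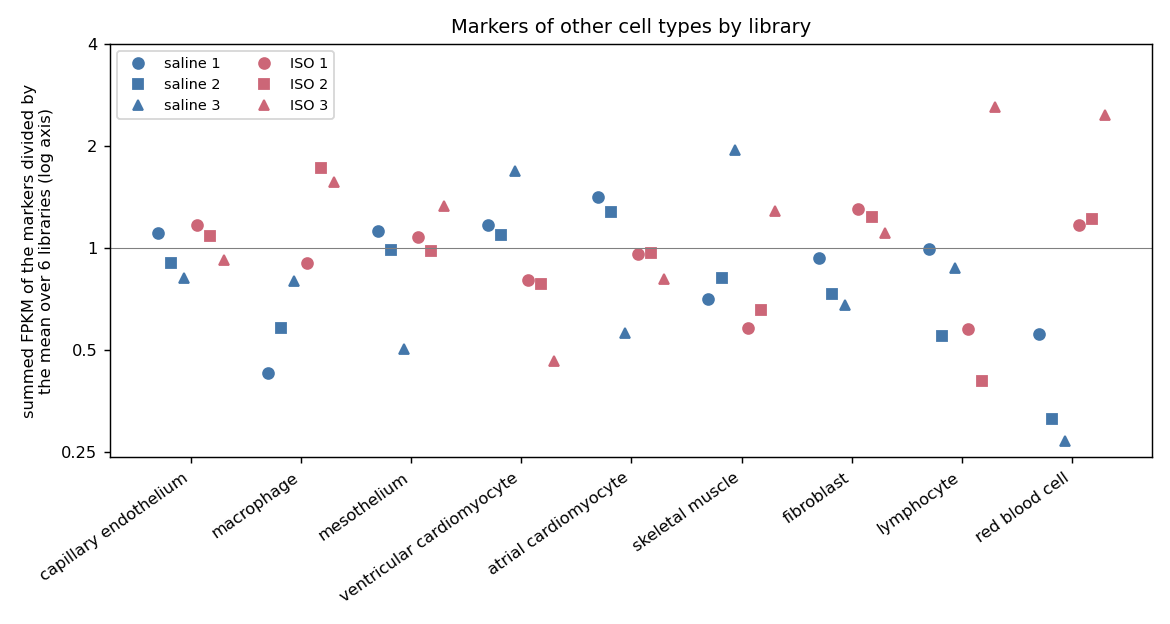
Summed FPKM of the markers of 9 other cell types in each library, divided by the mean over the 6 libraries (log axis; circles, squares and triangles are replicates 1 to 3). ISO 3 stands highest for lymphocyte, red blood cell and mesothelium markers and lowest for ventricular muscle markers.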

How the data were processed

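The authors deposited FPKM values for 21989 gene symbols, in 1 column per library matched to its sample by library name. The submitters' processing notes name the build GRCm38 and, with no role or order, DESeq, Cufflinks 2.2.1, HTSeq 0.7.2, fastp 0.20.0, CASAVA 1.8 and HISAT2 2.1.0. RNA was poly-A selected, per the labels' protocols. The annotation and strand setting are not given in the sources used here. FPKM divides by the library total, so abundant genes that rise lower all others.

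Whole reads were recovered from the FPKM steps (100% of 16816 genes detected in 2 or more libraries came out within 0.0001 of a whole number). The library totals follow from lengths being whole. On simulated data, 98.9% of 16816 genes were recovered exactly.

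Genes with a mean of at least 1 FPKM (12269) were tested as log2(FPKM + 1) with limma 3.58.1 in R 4.3.3 (trend option, 6 libraries, no covariate beside the group), with Benjamini-Hochberg adjustment at 0.05. Fold changes on this scale understate changes of low genes. On simulated data for this comparison, limma called 61% of the genes set to a 4-fold change and 87% of those set to 16-fold, among 12052 tested. It also called 10 genes that were not changed. The noise was drawn for each gene on its own, with no effect shared across a library, and the changed genes were picked at random. These rates therefore do not hold for the 10 genes, of which Ucp1 (SD 2.19) and Cfd (SD 1.53) spread far more than the median gene (0.42). Median and count of a list are descriptions without a test. The 10 genes, the lists and the naming rule were chosen with earlier results of these data known. The rule took all 10 genes, up to 4 genes of each of 8 lists by p and the 5 genes most like Adipoq and Ucp1 by Pearson r. Genes outside it were named after their values were seen. Positions are from RefSeq on GRCm38.p6, and 8 of the 10 genes had a promoter window that was used. The remaining work ran in Python 3.11.15 with scipy 1.17.1, pandas 2.3.3 and numpy 2.4.6.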

Additional observations from a re-analysis of the deposited data

How the results depend on the processing

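Of the 9 tested genes, 0 passed under any of the 12 alternatives (another pseudocount, no filter, median-of-ratios scaling, sample quality weights, limma-voom on recovered reads, a replicate block and each library left out), and their lowest limma adjusted p was 0.0674, for Fabp4 with quality weights. Lep was tested only with no filter (limma adjusted p = 0.968). Over all genes, quality weights called 768 and leaving out 1 library called 0 to 16 (16 without ISO 1). The other alternatives called 0. The sign turned for Retn under median-of-ratios scaling (-0.02), quality weights (-0.75) and limma-voom (-0.12), for Cfd with quality weights (-1.13), and for Cidea with quality weights (0.30) and limma-voom (0.05). Lep, at 0.03 in all libraries, was at -0.15 with a pseudocount of 0.1, -0.01 under median-of-ratios scaling, -0.34 with quality weights and -0.41 with limma-voom. The cause was not tested. Leaving out 1 library moved the log2 fold change between -1.20 and 0.31 for Adipoq, -0.29 and 0.54 for Retn, -0.53 and 1.02 for Cfd, -0.98 and 0.39 for Plin1, -0.59 and 0.30 for Cidea and -0.28 and 0.22 for Lep, all with turns of sign. It moved the median of the 10 genes between -0.76 and 0.08. Plin4, Cidec, Fabp4 and Ucp1 stayed below 0 under all 12 alternatives.

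Replicate numbers are shared by the groups, but deviations of same-numbered libraries correlated at 0.013, -0.148 and -0.025 over genes, so the numbers were not taken as pairs. With the replicate block 0 genes were called and the Adipoq log2 fold change was -0.22. Depth limits Lep (1 to 21 reads), Plin1 (22 reads in saline 3) and Retn (16 reads in saline 3).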
